A study of Rattus norvegicus with 36 samples.

Results

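Among the rats whose array carried thyroid follicle signal, 131I at 760, 1300 and 4700 kBq was followed after 24 h by higher levels of a small set of transcripts, led by the p53 target Cdkn1a and by Svop, than in mock-treated rats. The arrays were selected on a measured value: they were kept if the Iyd probe A_43_P21810 had a log2 level (log2 processed signal minus the 75th percentile of its array) above -4. Iyd encodes iodotyrosine deiodinase, which recycles iodide inside thyroid follicular cells. Of the 36 arrays of the series, 19 passed this limit, and 11 of them belonged to the groups compared here: 8 of the 12 arrays labelled 760, 1300 or 4700 kBq and 3 of the 4 labelled 0 kBq. By group, 3 arrays at 760 kBq (replicates 1, 3 and 4), 2 at 1300 kBq (replicates 3 and 4), 3 at 4700 kBq (replicates 1, 2 and 4) and 3 controls (replicates 1, 2 and 4) were kept, together with 8 of the 20 arrays of the lower activities, 9 to 340 kBq.

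The animals were adult male Sprague Dawley rats, injected in a tail vein with saline that held 131I or, for the controls (0 kBq), none. Each array was hybridised once with total RNA of the thyroid sample of 1 rat, so that the replicates are separate animals, and no 2 of the 11 arrays held identical values. Rats were injected in ascending order of activity and the controls last. Time of day and activity can therefore not be told apart. In such bulk tissue, fewer cells of a type and less RNA per cell cannot be told apart either.

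131I is taken up by follicular cells through the sodium iodide symporter, and its beta particles deposit their energy within the gland. DNA damage stabilises the transcription factor p53, which switches on genes that halt the cell cycle, trigger apoptosis or feed back on p53 itself, Cdkn1a and Mdm2 being the textbook examples. In the thyroid, whose cells divide rarely, p53 target transcripts are known as early readouts of irradiation.

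The promoters below are shown because their genes rose together in the comparison and their windows hold a close match to the p53 response element. All 6 genes with a called probe (Cdkn1a, Svop, Pln, Abcb1b, Aen and Plk2; the levels follow) had a window in the RefSeq promoter table of build GRCr8, which runs from 250 bases before to 50 bases after the annotated start. The windows were searched on both strands for the p53 consensus of 2 decamers, up to 13 bases apart, with both cores intact and at most 2 mismatches in the 20 bases. Cdkn1a (chr20:7150682-7150981, plus strand, 1 mismatch, first base 201 bases before the start) and Aen (chr1:142224283-142224582, plus strand, 2 mismatches, first base 30 bases before the start) held a match, printed in capitals:
Cdkn1a: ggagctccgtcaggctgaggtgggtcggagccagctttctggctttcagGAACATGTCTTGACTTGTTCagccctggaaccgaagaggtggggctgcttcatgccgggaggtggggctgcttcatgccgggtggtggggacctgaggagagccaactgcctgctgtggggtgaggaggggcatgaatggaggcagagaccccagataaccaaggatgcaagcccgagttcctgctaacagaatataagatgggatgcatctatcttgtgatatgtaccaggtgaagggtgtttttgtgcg
Aen: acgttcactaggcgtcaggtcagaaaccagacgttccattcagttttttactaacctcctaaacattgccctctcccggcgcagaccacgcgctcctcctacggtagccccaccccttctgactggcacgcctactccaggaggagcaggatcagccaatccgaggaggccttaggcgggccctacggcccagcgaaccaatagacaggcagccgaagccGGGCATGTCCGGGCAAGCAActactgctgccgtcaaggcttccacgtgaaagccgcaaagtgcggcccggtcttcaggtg
Of the 33469 windows, 1.95% held such a match. The other 4 genes with calls held none. Of the other p53 targets described below, only Ccng1, Mdm2 and Gdf15 were looked up. Ccng1 held a match with 2 mismatches, and Mdm2 and Gdf15 held none. A match is a run of letters and not a binding site.

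**Figure D1:**
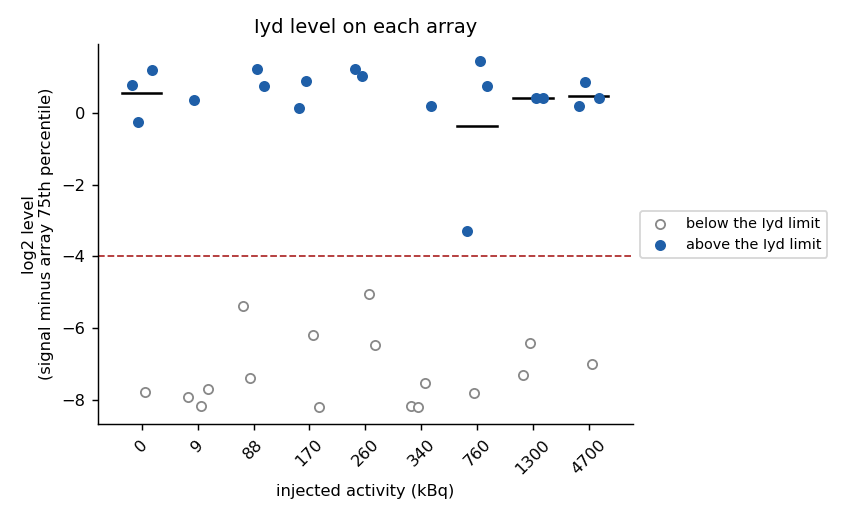
Log2 level of the Iyd probe on each of the 36 arrays (vertical axis) by injected activity in kBq (horizontal axis). Filled points passed the limit of -4 (dashed line), open points did not, and black lines are the means of the kept arrays of the 4 groups compared. The lowest kept array, 760 kBq replicate 1, lies at -3.28 and the nearest array left out, 260 kBq replicate 3, at -5.05.

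Just inside the limit was 760 kBq replicate 1 at -3.28. The next kept array, control replicate 2, had -0.26. Just outside was 260 kBq replicate 3 at -5.05, and the 5 arrays left out of the 4 groups compared ranged from -7.81 (760 kBq replicate 2) to -6.43 (1300 kBq replicate 2). These values chose the arrays and are given as a description. The same holds for the 15 thyroid follicle genes, whose mean log2 level was between 0.94 and 2.40 in the kept controls, between -1.12 and 2.41 in the kept arrays of higher activity, and between -5.07 and -2.48 in all 17 arrays left out. Tg, the thyroglobulin gene, differed by -0.02 (log2) between the kept groups. Over the 15 genes the median difference was -0.19, with a range from -1.34 to 0.64. Only 3 of the 15 lay above the median of all probes (0.09). By activity the median of the list was -0.90 at 760 kBq, 0.06 at 1300 kBq and 0.09 at 4700 kBq. Of the 11 arrays compared, only 760 kBq replicate 1 had a list mean below 0.

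**Figure D2:**
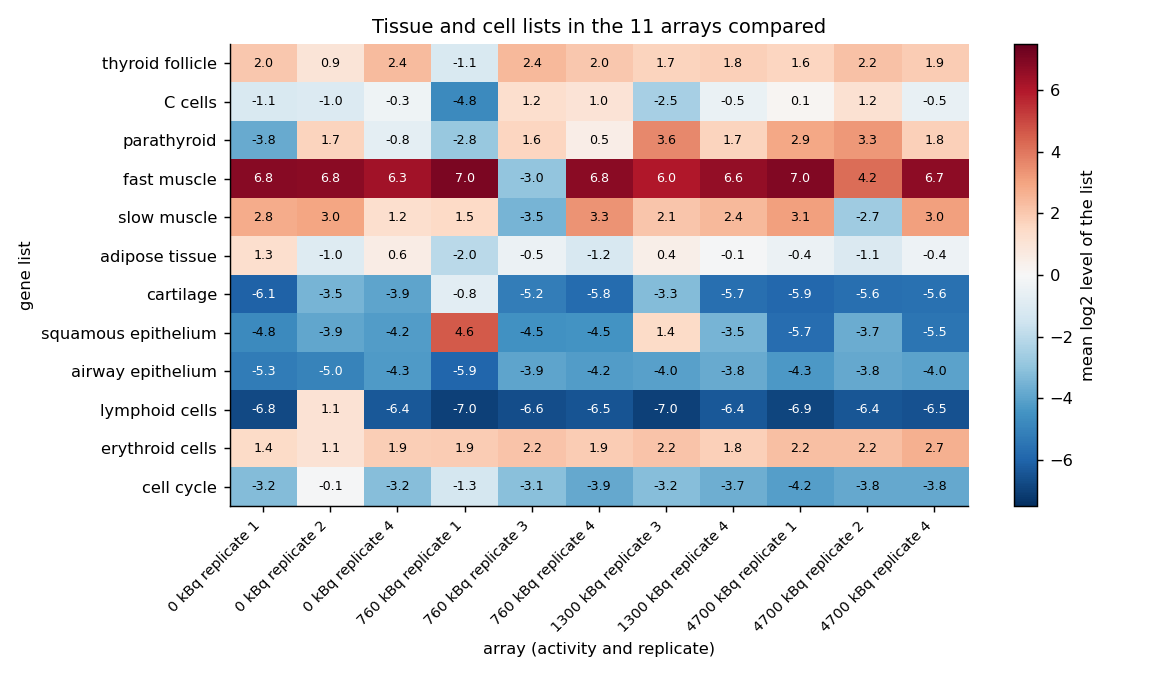
Mean log2 level of 12 gene lists (rows) on the 11 arrays compared (columns), with red for levels above and blue for levels below the 75th percentile of the array. Control replicate 2 stands out in the lymphoid list (1.07) and 760 kBq replicate 1 in squamous epithelium (4.62), while fast muscle genes are high on all arrays except 760 kBq replicate 3.

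Follicle transcripts were not the whole sample. Genes of fast muscle, the tissue that lies against the gland, had a mean log2 level between 6.32 and 6.84 in the kept controls and between -2.99 (760 kBq replicate 3) and 7.03 in the kept arrays of higher activity. Control replicate 2 had a mean of 1.07 over the lymphoid genes, against -6.78 and -6.38 in the other controls and at most -6.36 in the arrays of higher activity. In 760 kBq replicate 1 the squamous epithelium genes had a mean of 4.62 and the cartilage genes of -0.79, and in 1300 kBq replicate 3 the squamous genes had 1.41. Parathyroid genes ranged from -3.80 to 1.66 in the controls and from -2.82 to 3.60 in the higher activities, and C cell genes from -1.12 to -0.34 and from -4.75 to 1.24. With the means of the fast muscle and squamous epithelium lists as covariates, Cdkn1a was 3.15 higher on the log2 scale (adjusted p = 0.0161, limma) and Aen 2.12 higher (adjusted p = 0.00989, limma). Of the 8 probes called at an adjusted p under 0.05, 4 were still called with these covariates. Among those that no longer passed were Pln (1.75, adjusted p = 0.056), Plk2 (2.11, adjusted p = 0.0595) and Abcb1b probe A_64_P010925 (2.46, adjusted p = 0.114, limma).

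Over all 30367 probes, 2 were called higher at the 3 higher activities (the average of their group means minus the control mean) at an adjusted p below 0.01 and 1.5-fold or more, which is 0.00659% of those tested, and none was lower. These were the probes for Cdkn1a and Svop. At an adjusted p under 0.05, 8 probes of 6 genes were called, all higher (0.0263% of the probes tested): Cdkn1a, Svop, Pln, Plk2 and both probes each of Abcb1b and Aen. Unadjusted p-values under 0.05 were found for 2251 probes that were higher (7.41%) and 377 that were lower (1.24%). The number of calls depended on the fit. With the slide as a block, or when the spread was estimated from the 11 arrays of the 4 groups alone rather than from all 19 kept arrays, 0 probes were called at either limit by limma, with unadjusted p-values under 0.05 for 2639 and 2092 probes. Beyond the 4 groups, only the 2 arrays each at 88, 170 and 260 kBq add to that spread. At 9 and 340 kBq 1 array each was kept, which adds nothing to it.

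Cdkn1a encodes p21, the inhibitor of cyclin-dependent kinases that halts the cell cycle after DNA damage. Probe A_44_P914438 had log2 levels of 0.18, 0.76 and 1.61 in the controls. It had 2.78, 3.14 and 3.44 at 760 kBq, 3.99 and 3.97 at 1300 kBq, and 4.92, 4.99 and 4.55 at 4700 kBq. Every array of higher activity was above every control. The arrays of each activity were also above those of the activity before it, an order whose share over all probes was not computed. The mean rose from 0.85 ± 0.72 (SD, n = 3) to 3.97 ± 0.82 (SD, n = 8), a change of 3.12 ± 0.28 (SE) on the log2 scale or 8.72-fold. The adjusted p was 0.00233 (limma), and the exact two-sided permutation test over the 11 arrays gave p = 0.00606, the smallest that its 165 arrangements allow. This value restates that the groups did not overlap, which held in this direction for 2.5% of all probes.

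The change of Cdkn1a was 2.27 at 760 kBq (adjusted p = 0.161), 3.13 at 1300 kBq (adjusted p = 0.0564) and 3.97 at 4700 kBq (adjusted p = 0.000609), each against the same 3 controls (limma). Arrays at 4700 kBq were 1.27 above the mean of the 760 and 1300 kBq groups (95% interval 0.62 to 1.92, unadjusted p = 0.0011 and adjusted p = 1, limma), so that this difference did not pass the correction over all probes. Within each of the 3 slides that held a control and 2 arrays of higher activity, the change was 2.65, 2.80 and 3.67. With the slide as a block it was 3.06 (adjusted p = 0.186), and in the fit of the 4 groups 3.12 (adjusted p = 0.0559). Over 28 alternative settings, some of which cannot alter the change, it was always higher, between 1.91 and 3.51, with adjusted p from 0.000113 to 1 (limma).

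A second Cdkn1a probe, A_64_P123895, did not follow the first. Its levels were 1.41, 0.82 and 1.82 in the controls, between 1.38 and 2.08 in the arrays of higher activity, and its change was 0.30 ± 0.22 (SE, adjusted p = 0.834, limma). The groups overlapped for this probe, and the array files do not say which part of the transcript each probe reads.

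**Figure D3:**
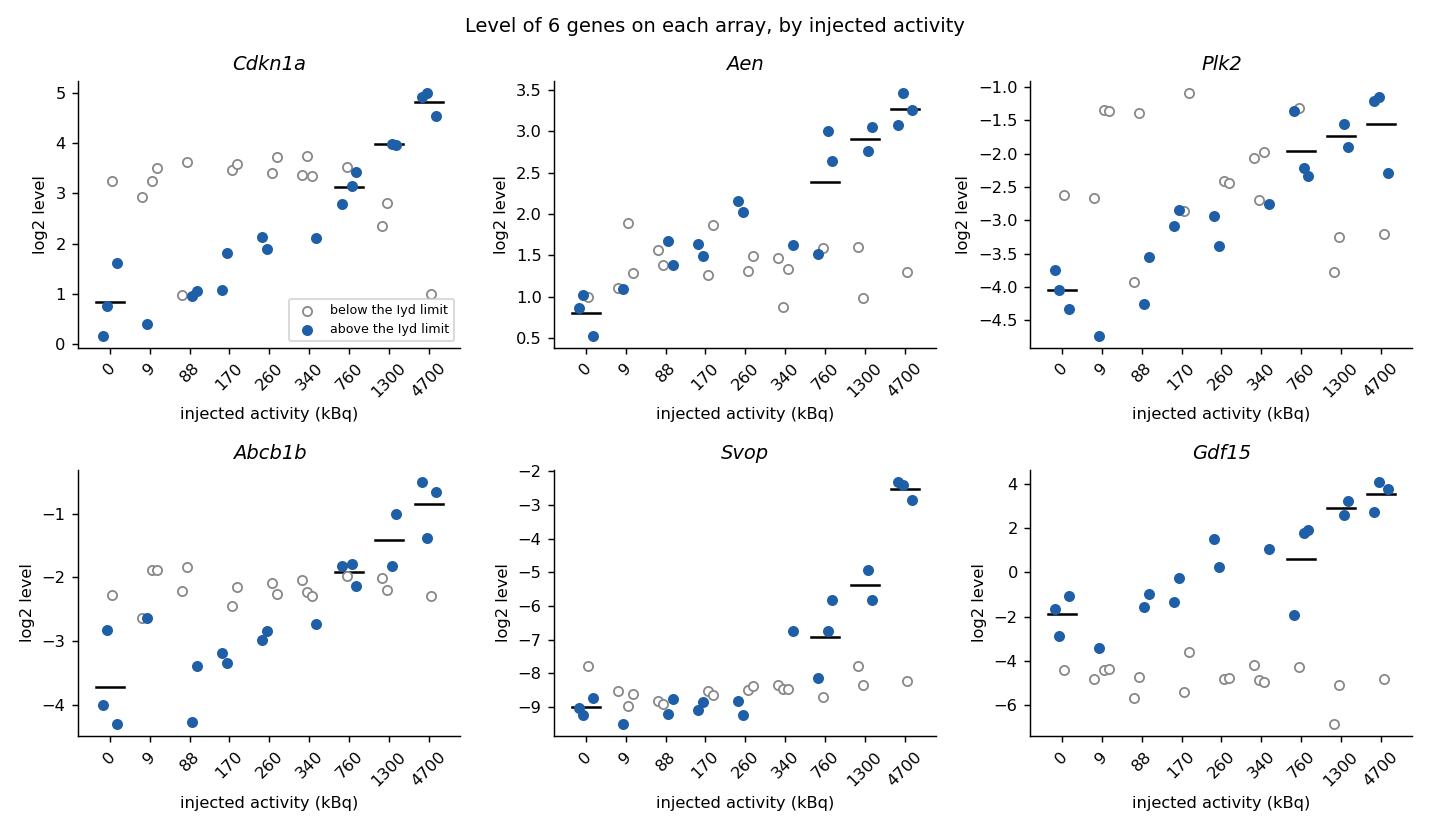
Log2 level (vertical axis) of Cdkn1a, Aen, Plk2, Abcb1b, Svop and Gdf15 on each of the 36 arrays by injected activity in kBq (horizontal axis). Filled points are arrays above the Iyd limit, open points arrays below it, and black lines the means of the kept arrays at 0, 760, 1300 and 4700 kBq. For Cdkn1a the filled points climb from 0.18 to 1.61 in controls to between 4.55 and 4.99 at 4700 kBq, while the open points range from 0.99 to 3.75 with no such order.

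The kept arrays of lower activity at 88, 170 and 260 kBq entered the fit through the shared estimate of the spread. None of the lower activities entered through any mean compared. Cdkn1a had 0.40 at 9 kBq, 0.97 and 1.06 at 88 kBq, 1.07 and 1.81 at 170 kBq, 2.14 and 1.89 at 260 kBq and 2.11 at 340 kBq. All 8 were below the lowest array at 760 kBq, those at 9 and 88 kBq and the lower one at 170 kBq lay within the range of the controls, and those at 260 and 340 kBq lay above it. Over these 8 arrays the level of Cdkn1a was related to the log2 of the activity (Pearson's r = 0.876, exact permutation p = 0.000397, adjusted p = 0.00119; Spearman's rho = 0.946, exact permutation p = 0.00119, adjusted p = 0.00357; 3 relations computed). Without the 2 arrays farthest from the median activity, r was 0.856 over 6 arrays. For Aen r was 0.766 (exact permutation p = 0.0202, adjusted p = 0.0304) and rho 0.594 (exact permutation p = 0.13, adjusted p = 0.13), with r = 0.771 without the 2 arrays. For Mdm2 r was 0.644 (exact permutation p = 0.0649, adjusted p = 0.0649) and rho 0.703 (exact permutation p = 0.0611, adjusted p = 0.0917), with r = 0.402 without them. Activity and order of injection cannot be told apart here either.

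Below the Iyd limit, Cdkn1a had 3.25 in the control left out, 3.53 in the 760 kBq array, 2.35 and 2.81 in the 1300 kBq arrays and 0.99 in the 4700 kBq array left out. In the 12 arrays of lower activity left out it ranged from 0.99 to 3.75 with a median of 3.44. Thus the control left out was above all kept controls, and the 4700 kBq array left out below all kept arrays of higher activity. As a single control was below the limit, the spread among such controls is not known.

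Mdm2 encodes the ubiquitin ligase that marks p53 for degradation and is itself a p53 target. Probe A_44_P634946 had log2 levels of -0.41, -0.07 and -0.47 in the controls, -0.07, 0.30 and 0.74 at 760 kBq, 0.58 and 0.86 at 1300 kBq, and 1.30, 1.67 and 0.85 at 4700 kBq. In 7 of the 8 arrays of higher activity it was above all controls, the exception being 760 kBq replicate 1. Its change was 1.09 ± 0.21 (SE), or 2.13-fold, with an adjusted p of 0.326 (limma) and an exact permutation p of 0.0121. The second probe, A_43_P16885, was above all controls in 8 of 8 arrays and was at 0.99 ± 0.18 (SE, adjusted p = 0.223, limma). Neither probe passed the test over all probes.

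Plk2 encodes a polo-like kinase that p53 induces. Its probe had log2 levels of -3.75, -4.05 and -4.33 in the controls, -1.36, -2.22 and -2.33 at 760 kBq, -1.56 and -1.91 at 1300 kBq, and -1.21, -1.15 and -2.29 at 4700 kBq. All 8 arrays were above all controls, and the 3 activities overlapped. It rose by 2.29 ± 0.30 (SE), or 4.90-fold (adjusted p = 0.0205, limma). The exact permutation p of 0.00606 restates that the groups did not overlap. The difference between 4700 kBq and the other activities was 0.30 (95% interval -0.40 to 1.0). Within slides the change was 2.16 to 2.46. The call was lost without any single control, with adjusted p of 0.0823 to 0.16, and with the tissue covariates (adjusted p = 0.0595, limma). Below the Iyd limit Plk2 had -2.62 in the control, above all kept controls. It had -3.93 to -1.09 in the arrays of lower activity left out and -3.77 to -1.32 in those of higher activity.

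Aen encodes an apoptosis-enhancing nuclease that degrades DNA downstream of p53. Probe A_64_P059120 had log2 levels of 0.86, 1.03 and 0.53 in the controls, 1.52, 3.0 and 2.64 at 760 kBq, 2.76 and 3.06 at 1300 kBq, and 3.08, 3.46 and 3.26 at 4700 kBq. All 8 arrays were above all controls, the lowest being 760 kBq replicate 1. It rose by 2.05 ± 0.26 (SE), or 4.14-fold (adjusted p = 0.0205, limma). The exact permutation p of 0.00606 restates that the groups did not overlap. The second probe, A_64_P059126, rose by 1.93 ± 0.24 (SE, adjusted p = 0.0186, limma). Within slides the difference of the first probe was 1.44 to 2.63. The call of the first probe was lost in 13 of 28 alternative settings, among them each that left out 1 control (adjusted p of 0.088 to 0.16, limma).

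Bax, a pro-apoptotic pore-former of the mitochondrial membrane, was above all controls in 8 of 8 arrays. Its log2 level was between -1.73 and -1.58 in the controls and between -1.54 and -0.50 at the higher activities, a change of 0.78 ± 0.18 (SE, adjusted p = 0.565, limma). Fas, a death receptor, was at 0.30 ± 0.77 (SE, adjusted p = 0.992, limma), with 1 control above all other arrays.

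Abcb1b encodes a P-glycoprotein, an efflux pump for drugs and lipids. Probe A_64_P010925 had log2 levels of -4.01, -2.83 and -4.30 in the controls, -1.83, -1.80 and -2.14 at 760 kBq, -1.82 and -1.01 at 1300 kBq, and -0.50, -1.39 and -0.66 at 4700 kBq. All 8 arrays were above all controls, with control replicate 2 nearest to them. It rose by 2.32 ± 0.33 (SE), or 4.99-fold (adjusted p = 0.0414, limma), and probe A_64_P039888 rose by 3.20 ± 0.39 (SE), or 9.17-fold (adjusted p = 0.018, limma). The call of the first probe was lost in 20 of 28 alternative settings. Below the Iyd limit this probe had -2.28 in the control, above all kept controls. It had -2.63 to -1.84 in the arrays of lower activity left out and -2.29 to -1.98 in those of higher activity. The second probe had -2.89 in the control left out and -4.90 to -1.84 in the arrays of lower activity left out. The probe of the neighbouring paralog Abcb1a was not well above background (the scanner software's own call) on any of the 11 arrays.

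Gdf15 encodes a secreted stress cytokine of the TGF-beta family. It had log2 levels of -1.64, -2.88 and -1.07 in the controls, -1.92, 1.76 and 1.90 at 760 kBq, 2.61 and 3.21 at 1300 kBq, and 2.71, 4.08 and 3.75 at 4700 kBq. In 7 of 8 arrays it was above all controls, and 760 kBq replicate 1 lay among them. The change was 4.20 ± 0.74 (SE), or 18.3-fold, and did not pass the test (adjusted p = 0.198, limma; exact permutation p = 0.0182). Without 760 kBq replicate 1 it was 4.61 (adjusted p = 0.00192, limma). Below the Iyd limit all arrays had Gdf15 levels from -6.85 to -3.58, lower than any kept array.

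**Figure D4:**
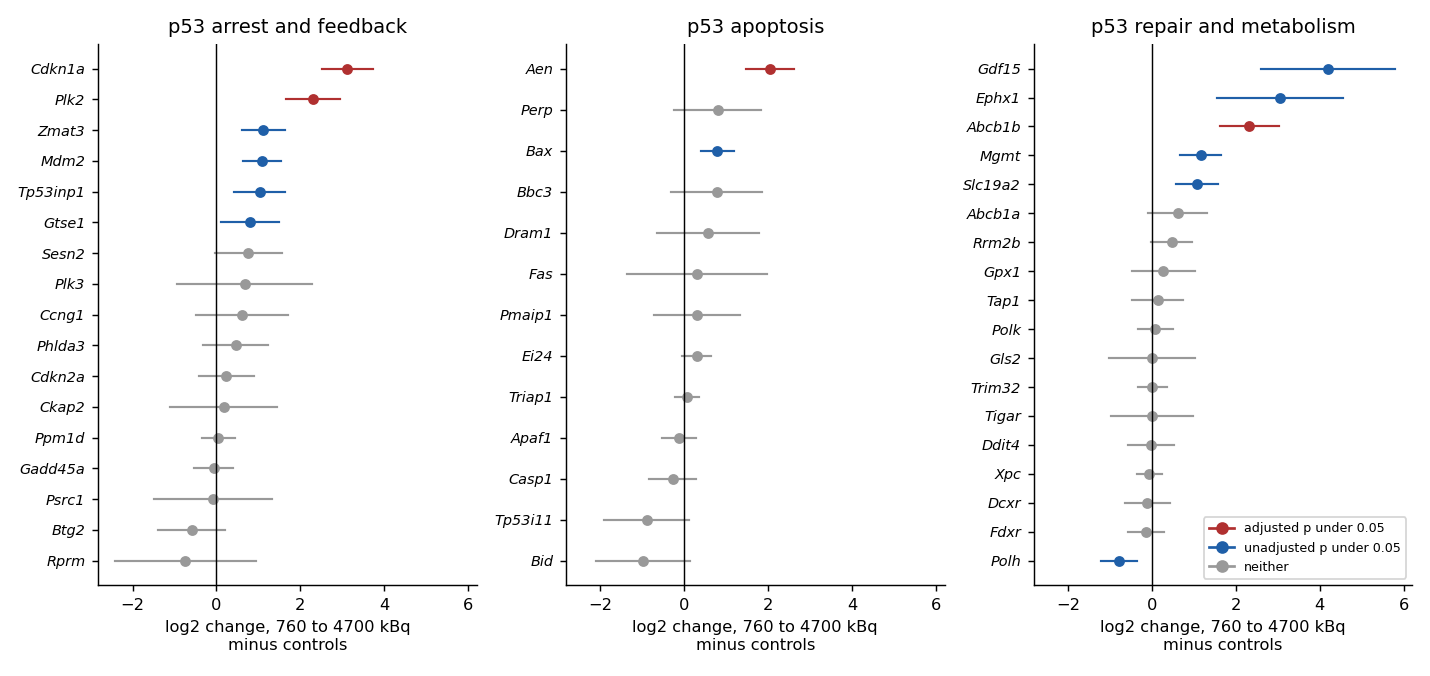
Log2 change (horizontal axis, average of the 760, 1300 and 4700 kBq means minus the control mean, kept arrays) of 48 p53 targets (vertical axis) in 3 lists, with 95% intervals from limma. Red marks an adjusted p under 0.05 over all probes and blue an unadjusted p under 0.05 only. Cdkn1a, Plk2, Aen and Abcb1b are the red points, and most other targets lie near 0.

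Of 56 p53 targets listed, 48 had a probe, and 4 of them (Cdkn1a, Plk2, Aen and Abcb1b) passed an adjusted p under 0.05. At an unadjusted p under 0.05, 13 were higher, against 7.41% of all probes, and 1 was lower, against 1.24%. Without control replicate 2 the numbers were again 13 and 1, while the share of all probes that was higher fell to 2.49%. The median change was 0.30, against 0.09 over all probes. In 7 of the 48 all 8 arrays were above all controls, against 2.5% of all probes, and in 1 all were below, against 0.145%.

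In the list of arrest and feedback genes, 6 of 17 were higher at an unadjusted p under 0.05 and none lower, with a median of 0.62. Beside Cdkn1a, Plk2 and Mdm2 these were Zmat3 (an RNA-binding protein) at 1.12 ± 0.24 (SE), Tp53inp1 at 1.03 ± 0.28 (SE) and Gtse1, which was not well above background in any control. Ccng1, the cyclin G1 gene, was at 0.62 ± 0.51 (SE, unadjusted p = 0.245, limma) and Btg2, an antiproliferative gene, at -0.59 ± 0.37 (SE, unadjusted p = 0.134, limma). In the apoptosis list 2 of 13 were higher, Aen and Bax, none was lower, and the median was 0.30. In the list of repair and metabolism genes 5 of 18 were higher and 1 lower, with a median of 0.10. Ephx1, a hydrolase of epoxides, was at 3.05 ± 0.69 (SE, adjusted p = 0.565, limma), Mgmt, which removes alkyl groups from guanine, at 1.15 ± 0.22 (SE) and the thiamine transporter gene Slc19a2 at 1.07 ± 0.23 (SE). The lower gene was Polh, a translesion DNA polymerase, at -0.79 ± 0.20 (SE, adjusted p = 0.565, limma), and all 8 arrays were below all controls for it.

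Outside the p53 lists, Svop encodes a transporter-like membrane protein first known from synaptic vesicles. Its log2 levels were -9.03, -9.25 and -8.73 in the controls, not well above background on any of them. It had -8.15, -6.75 and -5.81 at 760 kBq, the last alone well above background, -4.92 and -5.83 at 1300 kBq, and -2.31, -2.41 and -2.84 at 4700 kBq. The 4700 kBq arrays were above all others, and those at 1300 and 760 kBq met at -5.83 and -5.81. How many of all probes were highest at 4700 kBq in this way was not counted. The adjusted p was 0.00298 for the 3 activities together and 0.000242 at 4700 kBq (limma). As the controls give only a bound, Svop was at least 23.7-fold higher at 4700 kBq and at least 3.28-fold higher at 1300 kBq, against the lowest signal that was well above background on each control array. It was the only probe called between 4700 kBq and the other higher activities (0.00329% of probes, at an adjusted p under 0.05), with a difference of 3.62 ± 0.42 (SE, adjusted p = 0.0494, limma). With quantile normalization, the authors' matrix, tissue covariates or a slide, replicate or scan day block, no probe was called for this difference. The same held without any single control or any single 4700 kBq array. Of the 8 kept arrays of lower activity, only that at 340 kBq was well above background, at -6.74, and all arrays below the Iyd limit stayed between -8.98 and -7.78.

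Pln encodes phospholamban, the brake on the calcium pump of the sarcoplasmic reticulum. Its log2 levels were -1.41, -1.98 and -1.29 in the controls, -0.60, -0.36 and -0.30 at 760 kBq, -0.03 and -0.20 at 1300 kBq, and 0.97, 0.91 and 1.01 at 4700 kBq. No array of an activity overlapped those of another, and the share of all probes for which this holds was not computed. Pln rose by 1.70 ± 0.20 (SE), or 3.26-fold (adjusted p = 0.017, limma), and by 1.60 to 1.79 within slides. The call was lost with the tissue covariates (adjusted p = 0.056) and without control replicate 1 (adjusted p = 0.0603) or 2 (adjusted p = 0.0732, limma). Pln was in the list of slow muscle genes, in which Atp2a2, the gene of that pump, was at 0.69 ± 0.31 (SE, adjusted p = 0.57, limma), and none of the other 6 had an unadjusted p under 0.05. The list mean was between 1.24 and 2.99 in the controls and between -3.47 and 3.35 at the higher activities.

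**Figure D5:**
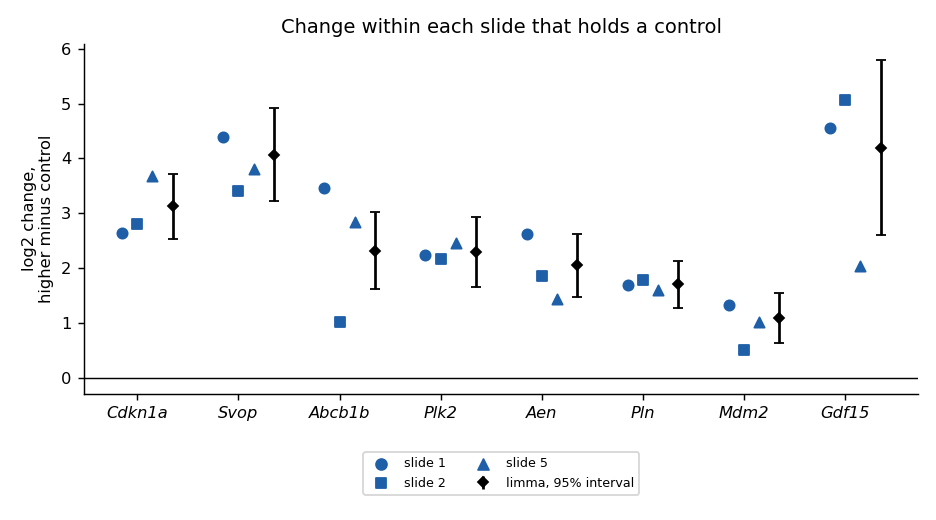
Log2 change (vertical axis) of 8 genes (horizontal axis) within each of the 3 slides that held 1 control and 2 arrays of higher activity (circle, square, triangle) beside the limma estimate over all kept arrays with its 95% interval (black diamond). All within-slide changes of these 8 genes are above 0, from 0.51 for Mdm2 to 5.06 for Gdf15. For Cdkn1a, Svop, Abcb1b, Plk2, Aen and Pln this only restates that all arrays of higher activity were above all controls. Among probes not shown, Ccng1 ranged from -0.66 to 2.26 and the second Cdkn1a probe from -0.41 to 0.84.

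At 4700 kBq alone, 3 probes were called at an adjusted p under 0.01 (0.00988%), namely Svop, Cdkn1a and Pln, and 12 at an adjusted p under 0.05 (0.0395%), all higher. Beside both probes of Abcb1b and Aen and the one of Plk2, the further calls were Slc4a1, Hapln3, Mybl1 and 1 probe without a symbol. Slc4a1, the anion exchanger of red cells, had log2 levels of -4.21, -4.67 and -3.64 in the controls, -4.33, -1.86 and -1.73 at 760 kBq, -1.66 and -1.29 at 1300 kBq, and -0.48, -0.26 and -0.38 at 4700 kBq. It was 3.80 ± 0.56 (SE) higher at 4700 kBq, or 13.9-fold (adjusted p = 0.0452, limma), and 760 kBq replicate 1 lay among the controls. The other 5 erythroid genes had no unadjusted p under 0.05, and the mean of the 6 was between 1.07 and 1.87 in the controls and between 1.80 and 2.68 at the higher activities. The part of red cells in the result of Slc4a1 was not tested.

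Hapln3, a link protein of hyaluronan, was 2.23 ± 0.30 (SE) higher at 4700 kBq, or 4.70-fold (adjusted p = 0.0271, limma), with levels of -5.09, -4.55 and -5.07 in the controls and -2.66, -2.26 and -3.09 at 4700 kBq. Mybl1, a transcription factor of the Myb family, was not well above background in any control and was at least 3.79-fold higher at 4700 kBq (adjusted p = 0.0452, limma), with levels of -5.09, -4.75 and -5.66 there. Neither gene overlapped between these groups, but the share of all probes for which this holds was not computed.

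At 760 kBq and at 1300 kBq alone, 0 probes were called by limma at either limit (0% of those tested). Unadjusted p-values under 0.05 were found for 2902 probes at 760 kBq (9.56%) and 917 at 1300 kBq (3.02%). Without 760 kBq replicate 1, the array nearest the Iyd limit, 5 probes were called at 760 kBq at an adjusted p under 0.01, and 9 rather than 2 for the 3 activities together. Leaving out 1300 kBq replicate 3 raised the calls at 1300 kBq to 23, although 1 array was then left in that group and was assumed to vary like those of the other groups, and raised the calls for the 3 activities together to 6, whereas leaving out 4700 kBq replicate 1 lowered the latter to 0 and leaving out control replicate 2 to 1.

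Cell cycle genes had a median log2 difference of -1.26 at the higher activities, and most of it came with 1 control. Of 22 genes, 4 were lower at an unadjusted p under 0.05 (Aurkb, Mcm2, Ccne2 and E2f1), against 1.24% of all probes, and none was higher or called. The list mean was -3.25, -0.10 and -3.18 in the controls, the high one being control replicate 2 with its lymphoid transcripts, and -1.31 in 760 kBq replicate 1 against -4.16 to -3.11 in the other arrays of higher activity. Without control replicate 2 the median was -0.23, with 1 gene lower and 1 higher, against 1.34% and 2.49% of all probes. Without 760 kBq replicate 1 it was -1.52, with 16 lower, against 1.52% of all probes. With the tissue covariates, in a fit that keeps control replicate 2, it was -1.73, with 18 lower, against 1.76% of all probes. Genes of DNA damage signalling and repair had a median of -0.11, with 2 of 21 lower (H2ax and Fancd2) and none higher, against 1.24% and 7.41% of all probes.

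Among oxidative stress genes 4 of 16 were higher at an unadjusted p under 0.05, namely Hmox1 (heme oxygenase) at 0.99, Nqo1 (a quinone reductase) at 1.05, Gclc (glutathione synthesis) at 0.78 and Srxn1 (sulfiredoxin) at 1.10, and the metallothionein gene Mt2A was lower at -0.89. These counts stand against 7.41% higher and 1.24% lower over all probes. Without control replicate 2, 2 were higher and 2 lower, against 2.49% and 1.34% of all probes. None was called. Ccl2, a chemokine for monocytes, was the only one of 13 cytokine genes with an unadjusted p under 0.05, at 1.73 ± 0.37 (SE, adjusted p = 0.565, limma). Myc was lower among 12 immediate early genes (-0.93 ± 0.31, SE), and Cebpd among 8 glucocorticoid responsive genes (-1.50 ± 0.33, SE), both with an adjusted p of 0.565 (limma). No gene of the 17 interferon or the 13 endoplasmic reticulum stress genes had an unadjusted p under 0.05.

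Clock genes were listed because of the order of injection. Of 15, only Clock was higher at an unadjusted p under 0.05, at 0.63 ± 0.24 (SE, adjusted p = 0.565, limma), none was lower, and the median was -0.08 against 0.09 over all probes. Of all probes, 7.41% were higher and 1.24% lower at that limit. Dbp, a transcription factor under circadian control, was at -0.46 at 760 kBq, -1.03 at 1300 kBq and 0.30 at 4700 kBq, and its 3 probes differed by -0.40 to -0.35 over the 3 activities with adjusted p of 0.778 to 0.828 (limma). The kept arrays of lower activity, injected first, differed from both groups: Dbp probe A_64_P017188 had a median log2 level of 2.11 in them (1.81 to 3.40, n = 8), against 4.15 (3.14 to 4.90, n = 8) at the higher activities and 4.56 (3.71 to 5.06, n = 3) in the controls, injected last. All but the 340 kBq array were below every array of the other groups. The relation of Cdkn1a to activity among the lower activities was therefore measured over arrays whose Dbp level differed from that of the controls, and the part of time of day in it was not tested.

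Among the other tissue lists, lymphoid genes had a median difference of -2.55, with 3 of 8 lower at an unadjusted p under 0.05, and without control replicate 2 their median was 0.21 with none. Of all probes, 7.41% were higher and 1.24% lower at that limit with all controls. Of 8 airway epithelium genes, 2 were higher (Bpifa1 at 2.75 and Bpifb1 at 0.93, both secreted airway proteins), and of 7 adipose genes 1 was lower (Cidec, at -1.03). Without control replicate 2, 5 of the 7 adipose genes were lower, against 1.34% of all probes, with a median of -1.33 rather than -0.84. The adipose list mean was 1.27, -0.98 and 0.56 in the controls and between -2.0 and 0.42 at the higher activities. None of the 10 C cell, 3 parathyroid, 9 cartilage, 8 fast muscle, 8 squamous epithelium, 8 myeloid, 5 endothelium or 6 fibroblast genes had an unadjusted p under 0.05, but several of these lists differed in level between the groups. The parathyroid genes had a median difference of 2.51, and 2 of the 3 were higher at an unadjusted p under 0.05 without control replicate 2 (median 3.94), without 760 kBq replicate 1 (median 2.69) and with the slide as a block (median 2.77). The shares of all probes that were higher in these settings were 2.49%, 7.62% and 7.28%. The medians were 2.21 for squamous epithelium and -1.28 for fast muscle. The part of parathyroid and adipose tissue in the results was not tested. Of the 6 genes with calls, Pln alone was in a tissue list. For Cdkn1a, Abcb1b and Plk2, the single control below the Iyd limit was above all kept controls. The same held for Pln by a narrow margin (-1.283 against at most -1.286). It held for Svop too (-7.78 against at most -8.73), where no control was well above background. For both probes of Aen that control lay within the range of the kept ones. The tissue makeup of the arrays nevertheless varied within the groups, as the level of fast muscle genes shows, and the part of tissues other than fast muscle and squamous epithelium, the 2 entered as covariates, was not tested.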

How the data were processed

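Per the labels, total RNA of rat thyroid was hybridised to Agilent SurePrint G3 arrays with 1 colour (Cy3), and the authors deposited the scanner output of each array, made with Feature Extraction 10.7.3.1, as linear intensity. The intensity used was the processed signal, which that software had corrected for background. The deposited value table of the series holds the authors' quantile-normalised intensity values and served as an alternative.

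Here the signals were taken to log2 values, the array's 75th percentile of non-control spots was subtracted, and spots of 1 probe were averaged, which gave 30367 probes. Symbols came from RefSeq (GRCr8) by accession, for 17998 probes; 12369 probes had none. Depth on arrays is signal over background: 65.9% to 76.8% of probes were well above background on the 11 arrays, 0 spots were saturated, and precision is set by how few arrays each group has. Probes missing on some arrays (99) were fitted on the others. No column was of unknown sample.

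The 9 groups of kept arrays (19 arrays) were fitted with limma 3.58.1 (R 4.3.3), 1 mean per group, so that all share 1 estimate of the spread. The comparison was the average of the 760, 1300 and 4700 kBq means minus the 0 kBq mean, and each activity separately. Calls needed a Benjamini-Hochberg adjusted p under 0.01, the limit in the study's methods, and a fold change of at least 1.5. Adjusted p under 0.05 was the wider limit. Exact two-sided permutation tests used scipy 1.17.1. Genes were named if they were on a gene list, by the probe of highest mean, or if their probe was called, lay beyond all controls on every array and was well above background on the whole brighter side (up to 10 per direction for the 3 activities, up to 5 for 4700 kBq). The other called genes and Abcb1a were named after their values were seen. The arrays, the Iyd limit and the gene lists were chosen with earlier results of these data known, so list counts are descriptions.

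Tested on simulated data for this comparison (30284 probes), the fit recovered 55 of 100 probes shifted by 4 times their spread and 4 of 100 shifted by 2 times, with 4 false calls at an adjusted p under 0.05. Replicate numbers showed no clear pairing of the samples, although the check could not exclude one. Other settings tried were normalization, background correction, a filter on dim probes, probe, slide, scan day and replicate blocks, array weights, tissue covariates, other Iyd limits and leaving out each array. Sequences other than promoter windows were not used here.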

Additional observations from a re-analysis of the deposited data

Results flagged for a closer look

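Cdkn1a differed between arrays above and below the Iyd limit. Its log2 change between the higher activities and the controls was 3.12 above the limit and -0.88 below it, a difference of 4.0 ± 0.72 (SE, adjusted p = 0.0164, limma over all 36 arrays). The change below the limit sets 4 arrays against a single control, at 3.25, which the fit assumes to vary like the arrays of the other groups, and the arrays were divided by a measured value. The p-value holds only under that assumption.

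For Svop the same difference was 4.63, between a fitted change of 4.07 above the limit and -0.56 below it. Svop was not well above background on any control or on any array below the limit, and 1 control was below it, so these values are read from the floor of the array and the difference is given as a description.

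Svop also differed between the activities: it was 3.62 ± 0.42 (SE) higher at 4700 kBq than at the mean of 760 and 1300 kBq (adjusted p = 0.0494, limma), with means of -2.52 at 4700 kBq, -5.37 at 1300 kBq and -6.91 at 760 kBq, where 2 of 3 arrays were not well above background. Among other settings, this call was lost without any single control or 4700 kBq array, and with quantile normalization or the slide as a block. Why these differences arose was not tested.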

How the results depend on the processing

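The signs of the log2 changes of the 14 probes followed (Cdkn1a, Mdm2, Aen, Abcb1b, Plk2, Svop, Pln, Gdf15, Slc4a1, Hapln3, Mybl1, Zmat3, Ccng1 and Mgmt) were the same in all 28 alternative settings, whereas the counts of called probes were not. All 14 were higher in the main fit and the settings reuse its arrays, so the equal signs are a description only. The change of Ccng1 was as low as 0.03. The second Cdkn1a probe was not followed through the settings. Not all settings were separate. Iyd above -5 kept the same arrays as the main fit, and Iyd above -3 left out only 760 kBq replicate 1. The fit of the 4 groups and the filter on dim probes alter the test but not the log2 change. Against 2 called for the 3 activities together at an adjusted p under 0.01 (limma), the count was 1 with quantile normalization, the authors' matrix, tissue covariates or the scan day as a block, the last chosen after seeing the data. It was 0 with the slide or the replicate number as a block, in the fit of the 4 groups, in a fit of 2 groups and over all 36 arrays with or without a follicle covariate, and it was 12 with array weights, 9 with Iyd above -3 and 8 at an adjusted p under 0.05. At 4700 kBq, 3 became 6 with normexp, 0 with the slide block, the fit of the 4 groups or all 36 arrays, 16 with array weights, 9 with Iyd above -3, 5 with tissue covariates and 12 at an adjusted p under 0.05. At 760 kBq, 0 became 4 with array weights and 5 with Iyd above -3, at 1300 kBq 4 with either, and for 4700 kBq against the other activities 1 with normexp, array weights, Iyd above -3 or an adjusted p under 0.05. The call at an adjusted p under 0.05 was lost with quantile normalization, the authors' matrix, tissue covariates or the slide, replicate or scan day block. It was also lost in the fit of the 4 groups, in a robust fit with a trend in the spread and over all 36 arrays. Leaving out 760 kBq replicate 3, any single control or any single 4700 kBq array removed it too. Leaving out 1 array at a time gave 0 to 9 calls for the 3 activities, 0 to 5 at 760 kBq, 0 to 23 at 1300 kBq (23 with 1 array left in the group, assumed to vary like the others), 2 to 9 at 4700 kBq and 0 to 1 between them. The cause of these shifts was not tested.

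Replicate numbers showed no clear pairing of the samples. Deviations of same-numbered arrays correlated at -0.18 to 0.42 (median 0.06, 5 of 11 pairs over 0.1). Those of different-numbered arrays had a median of -0.02, with 8 of 34 pairs over 0.1. Of 11 arrays, 4 correlated best with one of their own number. Deviations within such small groups offset each other, so this check cannot exclude a pairing. With the replicate number as a block, Cdkn1a was at 3.04 (adjusted p = 0.034) and Svop at 3.85 (adjusted p = 0.0955, limma). The small number of controls and slides limits the precision, and calls near background (Svop, Mybl1) give bounds only.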
